A study of Mus musculus with 12 samples.

Results

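The nuclear-encoded oxidative phosphorylation genes are those whose symbols begin with Nduf followed by a, b, c, s or v and a digit, with Uqcr, with Cox and a digit from 4 to 8, or with Atp5, together with Sdha, Sdhb, Sdhc and Sdhd. Assembly factors were left out. The choice went by symbol and used no measured value, but it was made with earlier results of these data known. The rule found 84 of the 24421 gene symbols in the count files, and 82 of the 84 were among the 15622 genes with enough counts to test. Cox7b2 had 2 to 18 counts per library and Cox8c had 0 counts in all 12 libraries, so neither was tested. RNA sequencing of polyadenylated RNA was done on the dorsal hippocampus of male mice, 4 to 5 months old, of the mixed strain 129sv/C57BL/6j. The 4 groups of 3 libraries were Mbnl2 KO house controls, Mbnl2 WT house controls, trained Mbnl2 KO mice and trained Mbnl2 WT mice. Mbnl2 is a muscleblind family gene whose product binds RNA and acts in alternative splicing. The targeted allele, the task and the time from training to dissection are not given in the labels. The comparisons ask how transcript levels differ by genotype, by training, and whether the genotype difference depends on training.

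Oxidative phosphorylation takes place in the inner mitochondrial membrane. Complex I oxidises NADH, complex II oxidises succinate, complex III passes electrons from ubiquinol to cytochrome c, complex IV reduces oxygen, and complex V, the ATP synthase, uses the proton gradient to make ATP. Most subunits are encoded in the nucleus and a few in mitochondrial DNA, and neurons depend heavily on the pathway. Many of the nuclear genes have promoters bound by NRF1, by ETS factors such as GABP, or by YY1.

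Promoter windows of 300 bases across the transcription start, from RefSeq (GRCm38.p6), were found for 69 of the 84 members (75 windows). The NRF1 motif (GCGCA and GCGC with 1 base of any kind between them), searched on both strands, was in 18 of the 75 windows (24.0%), against 4.6% of all 32851 windows of the same length. The letters CCGGAAG (GABP and other ETS factors), on both strands, were in 16 windows (21.3%, against 8.86% of all), and AAGATGGC (YY1), on both strands, was in 12 (16.0%, against 2.75%). At least 1 of the 3 was in 40 windows (53.3%, against 14.7%). Some genes had 2 overlapping windows, so the NRF1 site of Ndufa5 and the YY1 site of Atp5sl were each counted in both. The comparison was with all windows, not with those of expressed genes or of like base content. A match is a description of the letters and shows no binding. Sdha, whose genotype groups are the ones that do not overlap below, had 3 NRF1 matches that do not overlap each other, and Ndufb4 was the other gene with 3. Cox8a and Cox8b are an isoform pair of very unlike levels. The Cox8a window held 2 ETS matches, and the Cox8b window held 0 matches to any of the 3 motifs. The window of Atp5b, the member with the highest level, also held 0. That of Ndufs5, a member with a low level, held 1 NRF1 match. The relation of matches to level was not tested. The windows of Sdha, Cox8a and Cox8b are given 5′ to 3′ on the gene's own strand, which is the minus strand for all 3, with every motif match in capitals.
Sdha, chr13:74350191-74350490: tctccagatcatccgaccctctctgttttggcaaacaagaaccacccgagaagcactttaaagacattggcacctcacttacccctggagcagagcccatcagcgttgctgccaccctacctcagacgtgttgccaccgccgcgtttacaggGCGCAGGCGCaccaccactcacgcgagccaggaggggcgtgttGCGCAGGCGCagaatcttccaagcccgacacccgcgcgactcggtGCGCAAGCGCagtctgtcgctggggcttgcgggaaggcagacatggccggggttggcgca
Cox8a, chr19:7217567-7217866: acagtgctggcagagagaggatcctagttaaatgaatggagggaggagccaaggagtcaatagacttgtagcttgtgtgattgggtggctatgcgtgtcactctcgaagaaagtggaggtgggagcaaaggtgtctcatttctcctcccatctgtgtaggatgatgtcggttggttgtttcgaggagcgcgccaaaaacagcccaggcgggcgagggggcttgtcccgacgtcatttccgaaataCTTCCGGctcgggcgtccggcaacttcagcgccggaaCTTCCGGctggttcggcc
Cox8b, chr7:140900397-140900696: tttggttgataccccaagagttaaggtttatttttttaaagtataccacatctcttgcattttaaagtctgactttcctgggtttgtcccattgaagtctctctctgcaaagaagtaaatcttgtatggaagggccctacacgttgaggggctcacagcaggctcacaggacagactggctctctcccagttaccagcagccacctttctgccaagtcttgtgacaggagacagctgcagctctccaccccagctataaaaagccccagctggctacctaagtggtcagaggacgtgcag

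The libraries held 19737929 to 27427076 counts each, and the 84 members together took 0.75 to 0.942% of them. Mbnl2 itself had 454 to 542 CPM (read counts divided by the scaled library size) in the 6 libraries labelled KO, against 315 to 365 CPM in the 6 labelled WT. A count over the whole gene does not check the labels where the allele is not described, so every direction given here is that of the labels. Markers of CA1 pyramidal neurons (8 genes, 461 to 1105 CPM summed) and dentate granule neurons (10 genes, 437 to 1570 CPM) were present in every library. Markers of neighbouring tissue differed widely. The 10 choroid plexus markers summed to 2234, 78.8 and 2678 CPM in KO house controls, against 113, 8053 and 15200 CPM in WT house controls. They summed to 75.5, 4777 and 2674 CPM in trained KO mice, against 3324, 54.1 and 7920 CPM in trained WT mice. The 10 striatum and septum markers summed to 1177, 1027 and 1578 CPM in KO house control replicate 2, WT house control replicate 3 and trained KO replicate 2, and to at most 298 CPM in the other libraries. Among house controls, WT replicates 2 and 3 and KO replicate 3 had the most of both choroid plexus markers and the 10 thalamus markers (550.4 to 679 CPM, against 182 to 349 CPM in the other 3). No marker of these 3 lists was at 0 in all 12 libraries. In bulk tissue, fewer cells of a type and less RNA per cell cannot be told apart.

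Levels are given as CPM per kilobase of transcript, averaged over the 12 libraries, so that genes of unlike length can be set side by side. They rest on 1 annotated transcript per gene (GENCODE vM21, GRCm38, which is mm10), with a median length of 739 bases among members. The highest level was that of Atp5b, the catalytic beta subunit of ATP synthase, at 542 CPM per kilobase. Cox8a, Cox4i1 and Cox6a1 of complex IV followed at 470, 431 and 412 CPM per kilobase. All 15 subunits of complex V and all 8 of complex III lay above 50 CPM per kilobase, with Atp5g2 (51.4) and Uqcrb (55.5) the lowest of each. The 7 core subunits of complex I, which carry its flavin and iron-sulphur clusters, had a median of 57.4 CPM per kilobase, with Ndufs8 the lowest at 52.9. Its 28 supernumerary subunits ran from 2.24 (Ndufs5) to 145 (Ndufb9), with a median of 62.6 CPM per kilobase. In complex II, Sdha, the flavoprotein that binds succinate, stood at 131 CPM per kilobase and the membrane anchor Sdhc at 28.1. Atp5s and Atp5sl carry the Atp5 symbol but are not subunits of the synthase, and had 7.92 and 12.5 CPM per kilobase.

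**Figure D1:**
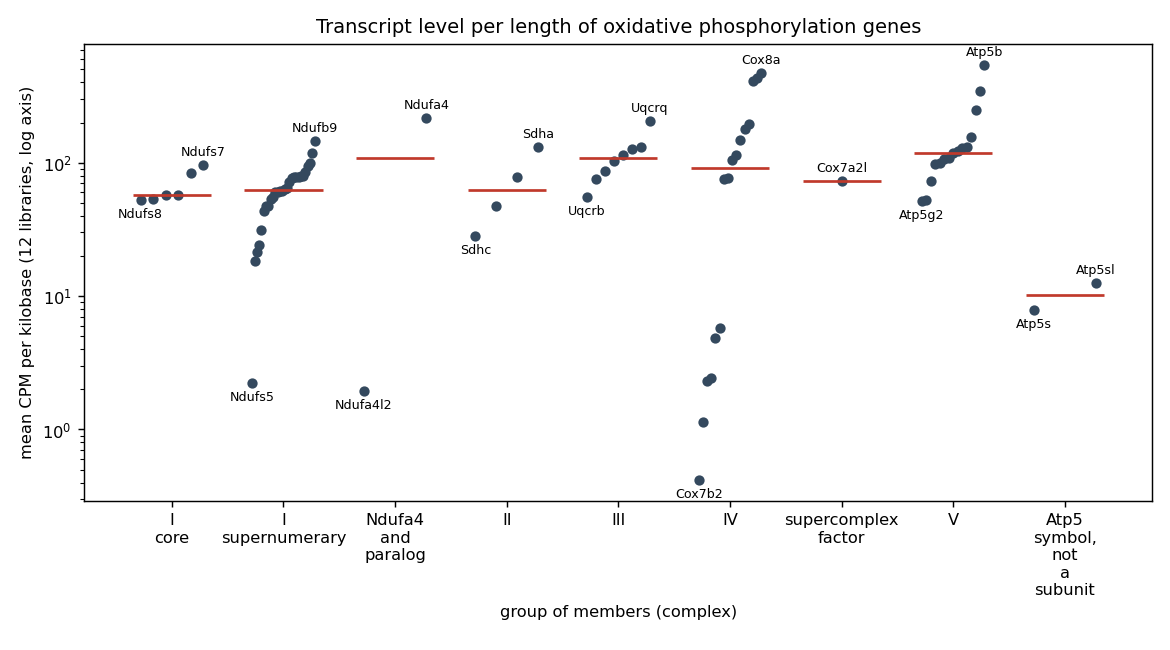
Mean CPM per kilobase of transcript over 12 libraries (log axis), grouped by complex, with the median of all members of each group above 0 as a red line and the highest and lowest points drawn named. Cox8c, with 0 counts, and 1 other member are not drawn. Most members lie between 50 and 550 CPM per kilobase, and a group of complex IV isoforms lies below 6.

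The level of Ndufs5, a small accessory subunit of complex I, is uncertain. It had 21 to 47 counts per library (0.878 to 1.94 CPM, not adjusted for length), while BC002163, annotated as a pseudogene, matches 319 bases of its transcript at 99.4% identity and had 21.7 to 35.5 CPM on the same scale. Among the 84 members, 13 had at least 1 annotated copy at 95% identity or more over 50% or more of the transcript, 24 of the 26 copies being pseudogenes. Atp5l had 9 copies, and Atp5h and Uqcrb had 3 each. Atp5c1, Atp5g1, Atp5g2, Atp5k, Atp5o, Cox7c, Ndufb11, Ndufs3 and Ndufs6 were the others. Reads of these 13 genes may have been split with the copies, and their values below carry that uncertainty.

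Isoforms that replace a subunit in particular tissues were low throughout. Cox4i2, the isoform of lung and of cells that sense oxygen, averaged 1.14 CPM per kilobase, against 431 for the general isoform Cox4i1. Cox7a1, the heart and muscle isoform, averaged 2.44 CPM per kilobase, against 115 for Cox7a2. The testis isoform Cox6b2 averaged 5.74 CPM per kilobase, against 178 for Cox6b1. Cox6a2 and Cox8b, both of heart and muscle, stood at 2.31 and 4.84 CPM per kilobase, against 412 for Cox6a1 and 470 for Cox8a. In the lipid-binding c subunit of ATP synthase, 3 genes encode the same mature protein, and all 3 were present: Atp5g3 at 249, Atp5g1 at 100.1 and Atp5g2 at 51.4 CPM per kilobase.

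Cox8b, the heart and muscle isoform of subunit 8, rested on 2 to 122 counts per library and was the most variable of all tested members, with a within-group SD of 2.43 on the log2 scale. It had 1.84, 0.0762 and 2.17 CPM in KO house controls, against 0.206, 3.61 and 5.04 CPM in WT house controls. In trained mice it had 0.153, 1.71 and 1.74 CPM in KO libraries, against 1.39, 0.12 and 2.87 CPM in WT libraries. The groups overlapped. The 4 libraries at or below 0.206 CPM were the 4 with the lowest choroid plexus marker sums, at most 113 CPM, and the 3 highest were the 3 with the highest sums. Cox6a2, the heart and muscle isoform of subunit 6A, had 1.42, 2.32 and 1.88 CPM in KO house controls, against 1.13, 1.16 and 3.59 CPM in WT house controls. Trained KO libraries had 0.957, 2.77 and 0.913 CPM of Cox6a2, against 0.613, 0.642 and 1.46 CPM in trained WT libraries. Its 3 highest libraries were the 3 with the highest striatum and septum marker sums. Other marker lists were summed as well. The 7 parvalbumin interneuron markers summed to 781 CPM in KO house control replicate 2 and 668 CPM in trained KO replicate 2. They summed to 634 CPM in WT house control replicate 3, within the 569 to 664 CPM of the other libraries. Ndufa4l2, the paralog of the complex IV subunit Ndufa4 that is known to respond to hypoxia, was highest at 2.88 CPM in WT house control replicate 1. That library also had the highest sum of the 10 pericyte and mural cell markers, 292 CPM, against 134 to 208 CPM in the others. The other libraries did not follow that order, since WT house control replicate 2 had 205 CPM of these markers with 1.44 CPM of Ndufa4l2, and trained KO replicate 2 had 165 CPM with 1.98 CPM. The part that these tissues and cells play in the 3 isoforms' levels was not tested.

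**Figure D2:**
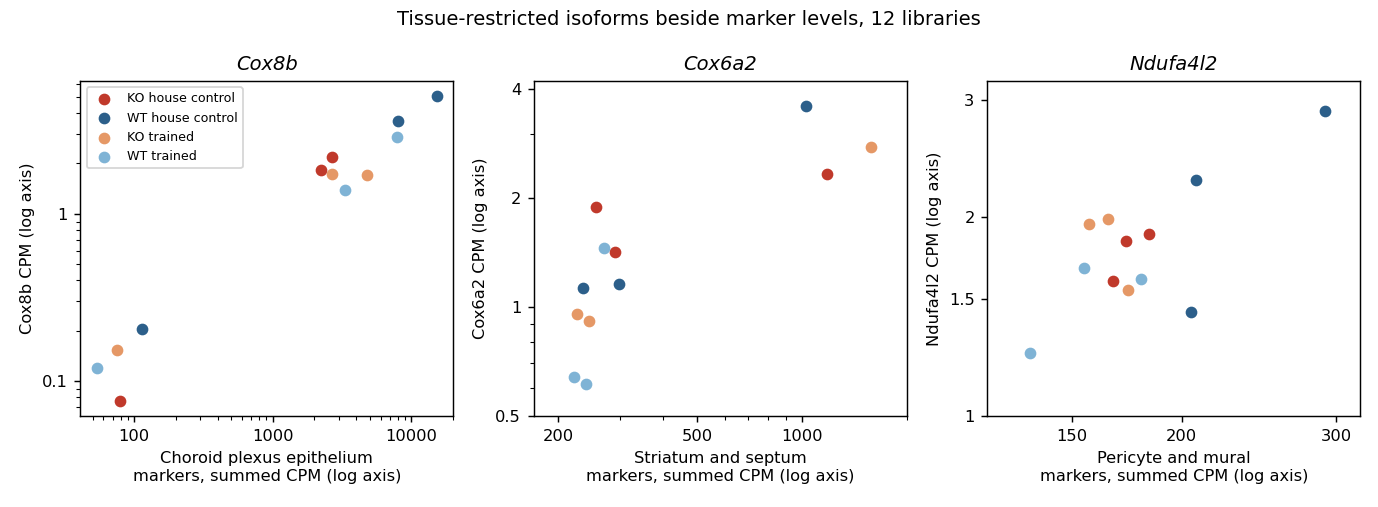
CPM of Cox8b, Cox6a2 and Ndufa4l2 in the 12 libraries, each against the summed CPM of 1 marker list in the same library (both axes logarithmic), coloured by group. Cox8b is at most 0.206 CPM in the 4 libraries with choroid plexus sums up to 113 CPM.

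The members as a whole varied little between libraries. Their median within-group SD was 0.0891 on the log2 scale, against 0.2 for all tested genes. It was under 0.15 for 71 of the 82 members and over 0.3 for 7, namely Cox8b, Cox6b2, Cox6a2, Cox7a1, Cox4i2, Ndufs5 and Ndufa4l2. These 7 averaged only 0.83 (Cox4i2) to 2.67 CPM (Cox6b2). Members were not compared with genes of like level, so the smaller SD may go with their level. Sdha had the smallest, 0.0328, followed by Cox5a, a matrix-side subunit of complex IV, at 0.0348.

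Between the genotypes, over both treatments, no member passed the threshold of an adjusted p under 0.05 (quasi-likelihood F-test of edgeR, adjusted by Benjamini-Hochberg across every gene tested). Among all genes tested, 0.576% passed. At an unadjusted p under 0.05, 1 member was higher in KO-labelled mice (Atp5sl; 8.54% of all genes were) and 4 were lower (Sdha, Ndufb10, Atp5g2 and Ndufb3; 5.89% of all genes), 5 of 82 together, against 14.4%. The estimates were small: the median log2 fold change, KO over WT, was -0.04 for members and -0.01 for all genes, and 66 of 82 members were below 0. So were 8129 of all 15622 genes tested. The 95% interval of the fold change stayed within 1.2-fold either way for 64 of 82 members and within 1.5-fold for 76.

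**Figure D3:**
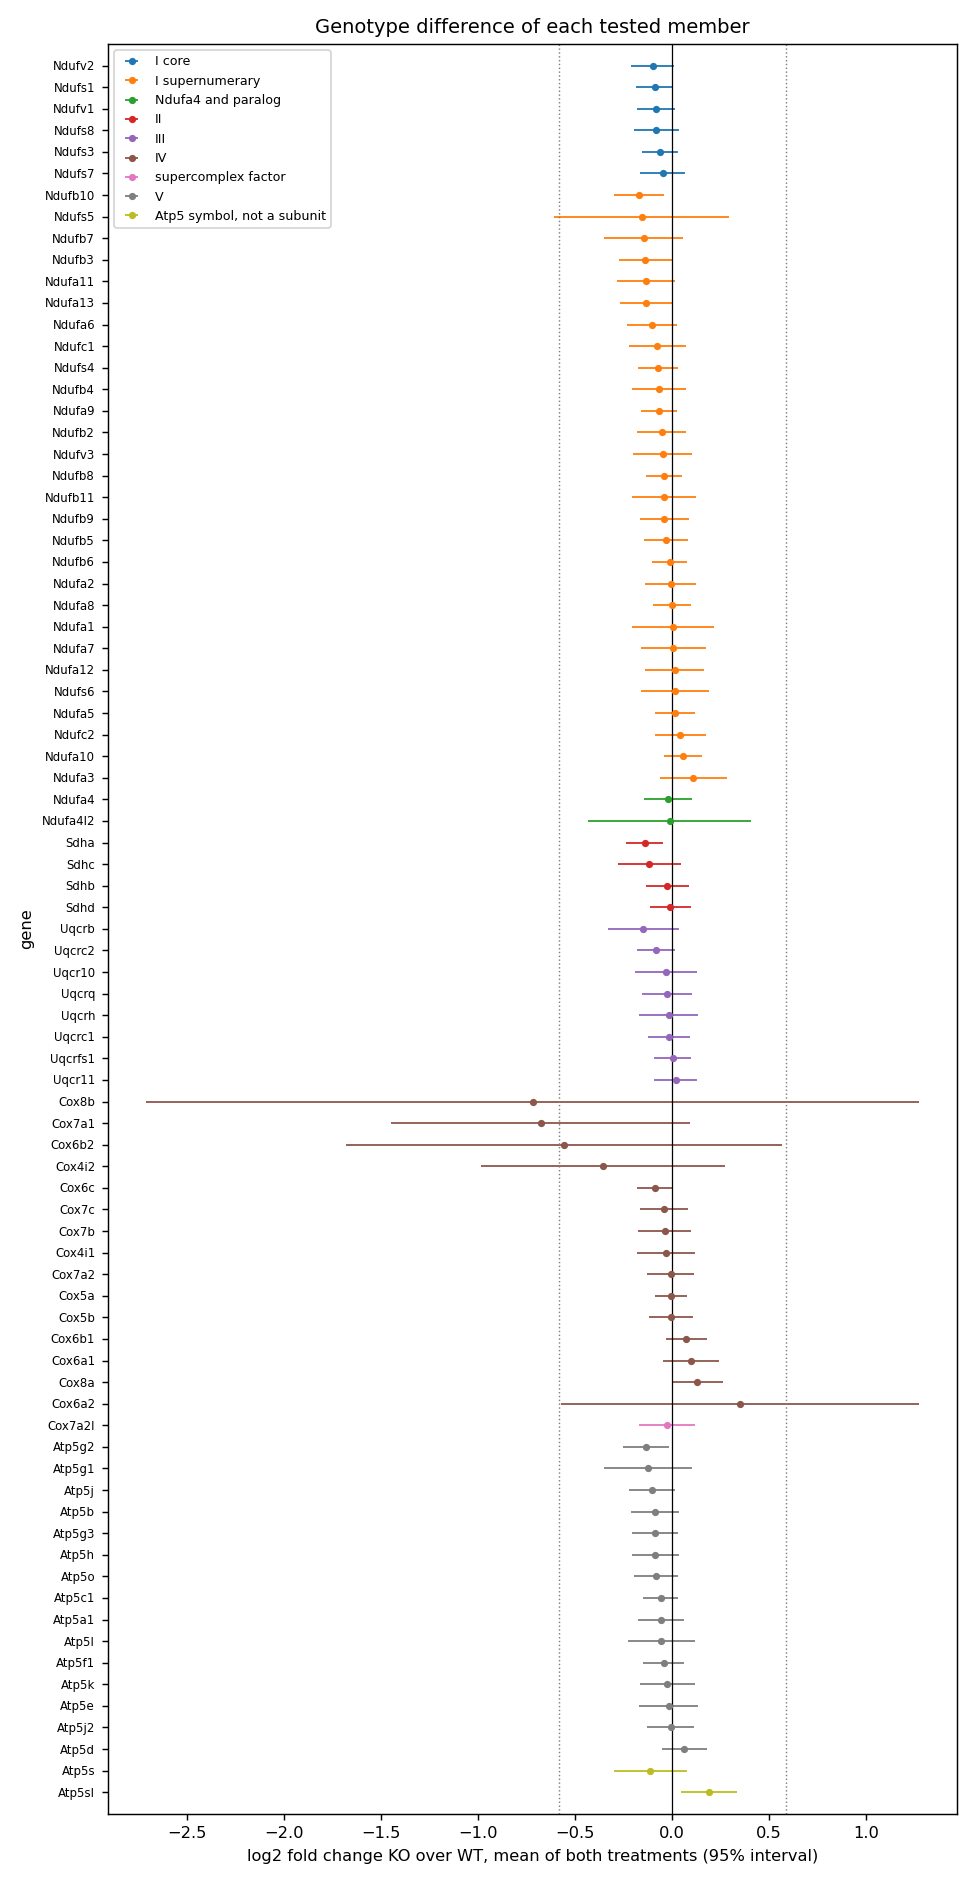
Log2 fold change KO over WT over both treatments for the tested members except 1, as points with 95% intervals, grouped and coloured by complex. Dotted lines mark 1.5-fold. Most intervals stay inside them, and the wide ones belong to the low isoforms such as Cox8b, Cox6b2 and Cox6a2.

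In complex II, Sdha (chr13:74322254-74350280, minus strand, GRCm38) was the 1 member whose 6 KO-labelled and 6 WT libraries did not overlap. It had 353, 366 and 361 CPM in KO house controls, against 401, 381 and 399 CPM in WT house controls. After training it had 358, 358 and 369 CPM in KO mice, against 408, 409.8 and 391 CPM in WT mice. All 6 KO-labelled libraries lay below all 6 WT libraries, with means of 361 ± 5.67 CPM in KO-labelled mice and 398 ± 10.8 CPM in WT mice (SD, n = 6 each). Of all genes tested, 0.717% were separated in this direction without overlap and 1.78% in either direction. Sdha is 1.22% of the 82 members. Its log2 fold change was -0.14 (SE 0.04, 95% interval -0.24 to -0.04), with an adjusted p of 0.176 by edgeR, which misses the threshold. DESeq2 on the same counts gave Sdha an adjusted p of 0.000114 over both treatments and 0.0362 in trained mice, and Sdha was the 1 member it called in each. DESeq2 called 5.04% of all genes over both treatments (1.48% lower) and 0.752% in trained mice. In house controls DESeq2 called 0 members and 1.69% of all genes, with Sdha at an adjusted p of 0.0507. The authors' deposited tables give Sdha an adjusted p of 0.374 for trained mice and 0.566 for house controls. Without the 3 house controls high in choroid plexus and thalamus markers, a lone WT house control is left. The log2 fold change of Sdha over both treatments was then -0.16. The libraries were also split in 2 at a gap in the animal numbers of their titles, which no label names as a series or batch. Within the first of these series (8 libraries) the log2 fold change was -0.16 (edgeR adjusted p = 0.673). Within the other series (2 KO and 2 WT libraries, genotype and treatment as additive terms with 1 residual degree of freedom) it was -0.11 (edgeR adjusted p = 0.593). CA1 pyramidal markers summed to 1020 to 1105 CPM in trained KO mice, against 461 to 848 CPM in trained WT mice, without overlap, and their part in the result was not tested. Sdhc had 85.3 ± 5.34 CPM in KO-labelled and 92.7 ± 10.8 CPM in WT mice (SD, n = 6 each), which overlapped.

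**Figure D4:**
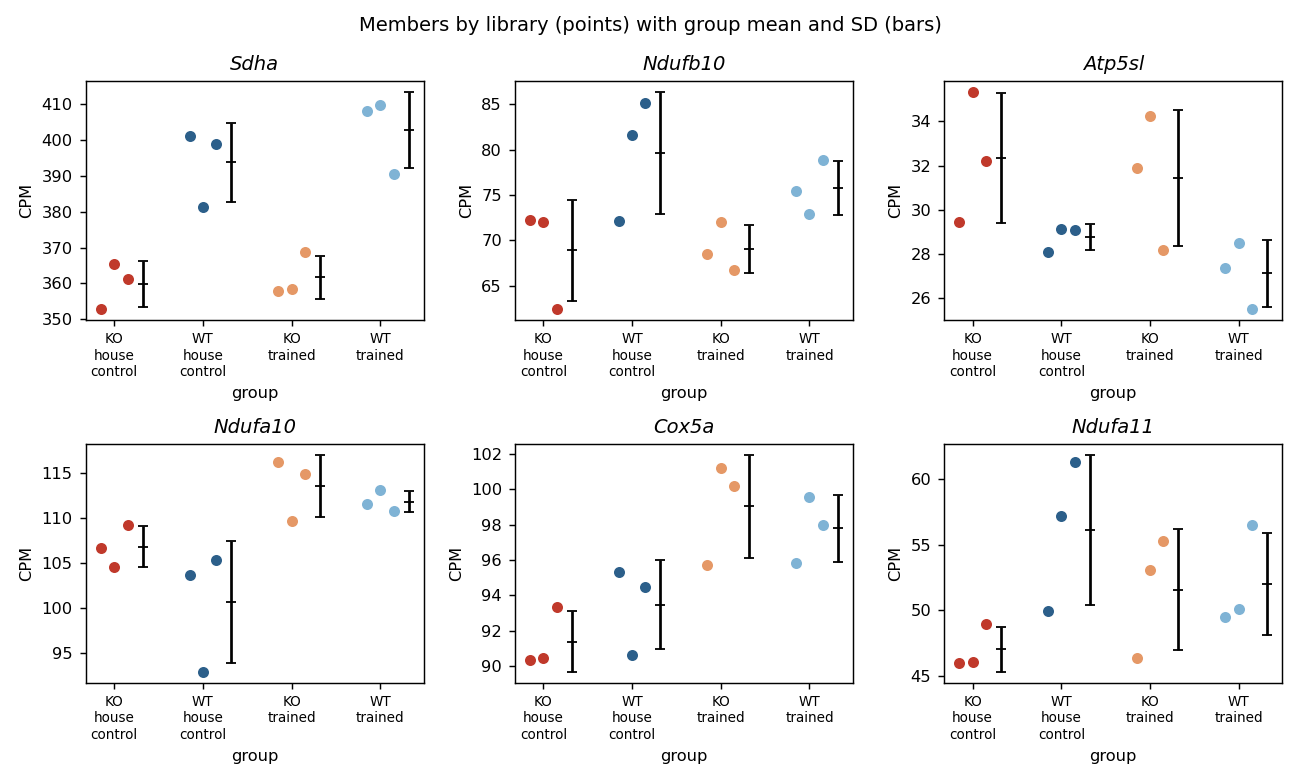
CPM of 6 members in each library (points) with the mean and SD of each group of 3 (bars); axes do not start at 0. For Sdha, all 6 KO-labelled libraries (353 to 369 CPM) lie below all 6 WT libraries (381 to 409.8 CPM), and for Ndufa10 and Cox5a all trained libraries lie above all house controls.

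In complex I, all 7 core subunits had negative estimates over both treatments, with a median log2 fold change of -0.08 and none past the threshold. Ndufs1, the 75 kDa iron-sulphur subunit at the entry of the electron path, had 134 ± 5.66 CPM in KO-labelled mice and 143 ± 2.47 CPM in WT mice (SD, n = 6 each; edgeR log2 fold change -0.09, adjusted p = 0.38). Ndufv1, which binds NADH and the flavin, had 135 ± 5.4 CPM in KO-labelled mice and 143 ± 3.62 CPM in WT mice (SD, n = 6 each), and Ndufs8, an iron-sulphur subunit, had 50.5 ± 2.48 CPM in KO-labelled and 53.4 ± 3.06 CPM in WT mice. The KO-labelled and WT ranges of both overlapped. Ndufv2, which carries an iron-sulphur cluster beside the flavin, differed by -0.10 on the log2 scale (SE 0.05, adjusted p = 0.387 by edgeR). Of the 28 supernumerary subunits 20 were below 0. Ndufb10, a membrane-arm subunit, had 72.3, 72 and 62.4 CPM in KO house controls, against 72.2, 81.7 and 85.1 CPM in WT house controls. After training it had 68.5, 72 and 66.7 CPM in KO mice, against 75.5, 72.9 and 78.8 CPM in WT mice, so the trained groups did not overlap and the house controls did, by 1 KO library. Its log2 fold change over both treatments was -0.17 (SE 0.06, edgeR adjusted p = 0.21). It was -0.07 without the 3 house control libraries named above, which leaves a lone WT house control. Within the 2 series split by animal number it was -0.09 in the first and -0.34 in the second. Ndufb3, another membrane-arm subunit, had 34.4 ± 2.44 CPM in KO-labelled and 37.9 ± 2.34 CPM in WT mice (SD, n = 6 each; adjusted p = 0.338 by edgeR). Ndufa13, an accessory subunit also known in cell death signalling, had 76.3 ± 4.38 CPM in KO-labelled and 83.7 ± 6.24 CPM in WT mice (SD, n = 6 each; adjusted p = 0.36 by edgeR).

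In complex III, Uqcrc2, a core subunit of the matrix arm, had 160 ± 4.39 CPM in KO-labelled mice and 169 ± 5.52 CPM in WT mice (SD, n = 6 each; adjusted p = 0.417 by edgeR). The other 7 subunits gave no smaller adjusted p. Uqcrb, which binds near the ubiquinone site and has 3 annotated copies, had 28.1 ± 2.36 CPM in KO-labelled and 31.2 ± 3.79 CPM in WT mice (SD, n = 6 each). In complex IV, 4 of 15 tested members were above 0, among them Cox8a, with 269.9 ± 17.8 CPM in KO-labelled mice and 247 ± 10.3 CPM in WT mice (SD, n = 6 each; difference 0.13 on the log2 scale, adjusted p = 0.348 by edgeR). Its highest library was KO house control replicate 2 at 299 CPM, and the difference was 0.08 without replicate 2 of both KO groups. Cox6c, a small membrane subunit, had 95.9 ± 2.84 CPM in KO-labelled and 102 ± 4.02 CPM in WT mice (SD, n = 6 each; adjusted p = 0.385 by edgeR). Cox6b1, which faces the intermembrane space, had 113 ± 4.86 CPM in KO-labelled and 107 ± 4.74 CPM in WT mice (SD, n = 6 each; adjusted p = 0.502 by edgeR). Cox7a1 had the widest difference among the members with an unadjusted p under 0.15, -0.68 (SE 0.35, edgeR adjusted p = 0.41), with 0.718 ± 0.219 CPM in KO-labelled and 1.2 ± 0.719 CPM in WT mice (SD, n = 6 each). That rested on WT house control replicates 2 and 3, at 1.72 and 2.4 CPM, the libraries with the highest choroid plexus sums (8053 and 15200 CPM). Trained WT replicate 3, with a sum of 7920 CPM, had 0.96 CPM of Cox7a1. Without the 3 house controls named above, which leaves a lone WT house control, the estimate of Cox7a1 was -0.09. The part of choroid plexus tissue in its level was not tested. In complex V, 14 of 15 subunits were below 0 with a median of -0.06. The catalytic Atp5b had 1007, 970.5 and 1008 CPM in KO house controls, against 1064, 1026 and 1141 CPM in WT house controls. After training it had 994, 1046 and 1015 CPM in KO mice, against 1022, 1076 and 1095 CPM in WT mice, so the house controls did not overlap and the trained groups did. Atp5g2 had 20.1, 21.2 and 21.7 CPM in KO house controls, against 23.9, 25.2 and 22.2 CPM in WT house controls, which did not overlap, and the trained groups overlapped (-0.13 over both treatments, SE 0.05, adjusted p = 0.283 by edgeR). Atp5sl, known in human cells for a part in complex I assembly, was named after its values were seen. It had 31.9 ± 2.74 CPM in KO-labelled mice and 28 ± 1.36 CPM in WT mice (SD, n = 6 each; difference 0.19, SE 0.06, adjusted p = 0.21 by edgeR).

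Within house controls alone the members leaned further toward lower levels in KO-labelled mice, and that lean depended on which libraries were kept. The median log2 fold change was -0.07, against -0.00 for all genes, with 69 of 82 members below 0 and none past the threshold (0.0128% of all genes passed). Of all genes, 7839 of 15622 were below 0. At an unadjusted p under 0.05, Ndufa11, Ndufb10, Ndufv2, Atp5g2 and Cox7a1 were lower (4.56% of all genes were) and 0 were higher (6.11%), 5 of 82 together, against 10.7%. Ndufa11, a membrane-arm subunit of complex I, had 46, 46.1 and 49 CPM in KO house controls, against 49.9, 57.2 and 61.3 CPM in WT house controls. The groups did not overlap (log2 fold change -0.26, SE 0.09, edgeR adjusted p = 0.395). Without the 3 house controls high in choroid plexus and thalamus markers, a lone WT house control is left. The estimate of Ndufa11 was then -0.12. Groups without overlap were found for 10 of the 82 members (12.2%), against 13.0% of all genes. Without the same 3 libraries the members' median was 0.01. With single libraries left out it stayed below 0, from -0.11 (without WT replicate 1) to -0.03 (without WT replicate 3). Within the first animal series the members' median was also -0.03. The 8 leptomeningeal markers summed to 214 to 645 CPM in KO house controls, against 1301 to 1853 CPM in WT house controls. The 10 pericyte and mural markers summed to 167 to 184 CPM in KO house controls, against 205 to 292 CPM in WT house controls, and the 8 endothelial markers to 191 to 209.9 CPM in KO, against 223 to 283 CPM in WT. These sums did not overlap between the house control genotypes, none of the markers was at 0 in all libraries, and their part in the result was not tested. In trained mice the median was -0.01 for members and for all genes, with 46 of 82 members below 0 and none past the threshold (0.0128% of all genes). Of all genes, 8181 of 15622 were below 0 there. At an unadjusted p under 0.05 stood 2 of 82 members, Atp5sl and Sdha, against 6.45% of all genes. Members without overlap numbered 9 of 82, against 14.0% of all genes. Without trained KO replicate 1 the median was 0.03. Ndufa3, a small accessory subunit of complex I, was the member of that complex with the smallest unadjusted p there (log2 fold change 0.20, SE 0.11, edgeR adjusted p = 0.834), and its log2 fold change was 0.13 without trained WT replicate 2. In the authors' deposited tables, 0 of the 79 members with an adjusted p were called in house controls and 0 of 82 in trained mice, with Ndufa11 at the smallest adjusted p in house controls, 0.521. The same tables call 0.558% of all genes with an adjusted p in house controls, and 0.834% after training.

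The members as a whole stood at different heights in libraries of 1 group. WT house control replicate 3 had 72 of 82 members above their 12-library mean, with a median deviation of 0.12 on the log2 scale. Trained KO replicate 2 followed with 63 members and 0.07, and trained WT replicate 3 with 60 members and 0.04. The lowest were trained KO replicate 1, with 12 members above the mean and a median of -0.07, and KO house control replicate 1, with 13 members and -0.06. WT house control replicate 1 stood at -0.05, so the 3 WT house controls spanned nearly the whole range. The groups' mean deviations were -0.03 ± 0.03 in KO and 0.03 ± 0.09 in WT house controls, and -0.00 ± 0.07 in trained KO and 0.01 ± 0.03 in trained WT mice (SD, n = 3 each). Of the 3 libraries at the top, 2 were among the 3 with the highest choroid plexus sums, and the lowest library had 75.5 CPM of these markers. Trained WT replicate 2, with the least, 54.1 CPM, stood at -0.00. WT house control replicate 2, with 8053 CPM, stood at 0.02, and KO house control replicate 1, with 2234 CPM, at -0.06. The 8 oligodendrocyte markers also differed, from 2789 CPM in trained WT replicate 2 to 13880 CPM in KO house control replicate 2, which stood at -0.005. The part of neighbouring tissue and of cell types in these deviations was not tested.

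**Figure D5:**
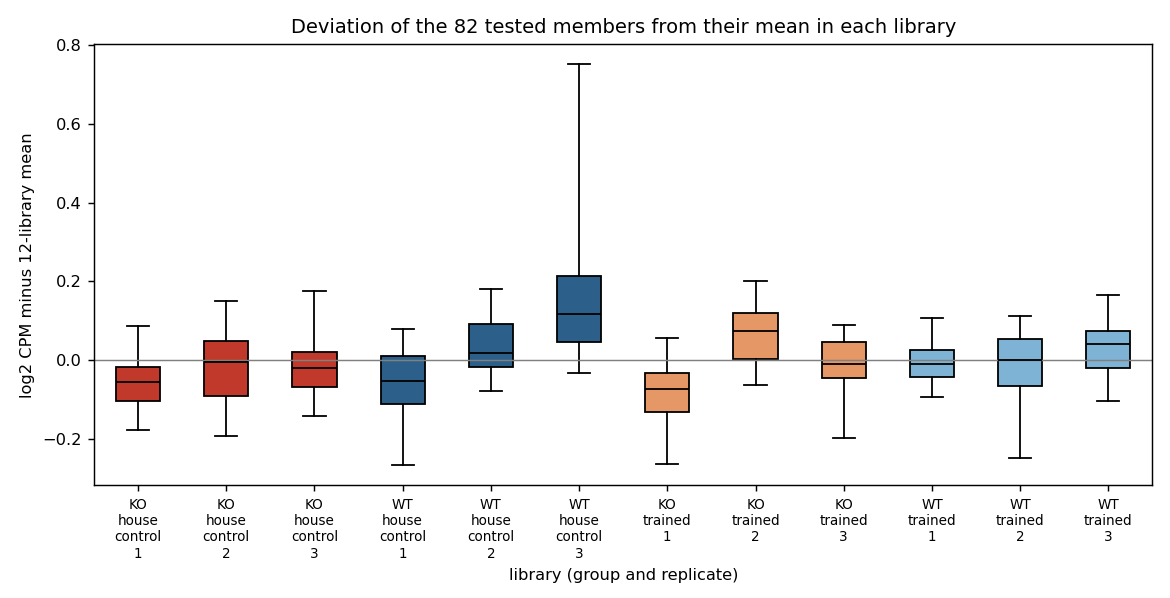
Deviation of the 82 tested members from their own 12-library mean (log2 CPM) in each library; boxes show the quartiles and median, whiskers the 5th to 95th percentile. WT house control replicate 3 lies highest (median 0.12) and trained KO replicate 1 lowest (-0.07).

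After training the set stood near its house control level. Over both genotypes, trained over house control, the median log2 fold change was 0.01 for members and -0.01 for all genes, with 45 of 82 members above 0 and none past the threshold (0.0% of all genes passed). Of all genes, 7458 of 15622 were above 0. The 95% interval stayed within 1.2-fold for 73 of 82 members. At an unadjusted p under 0.05, 2 members were higher (4.57% of all genes were) and 0 lower (6.59%), against 11.2% in either direction. These were Ndufa10, an accessory subunit of complex I (chr1:92439010-92473860, minus strand), and Cox5a (chr9:57521274-57532426, plus strand). Ndufa10 had 116, 109.7 and 115 CPM in trained KO mice, against 107, 105 and 109.2 CPM in KO house controls. In WT mice it had 112, 113 and 111 CPM after training, against 104, 93 and 105 CPM in house controls. All 6 trained libraries lay above all 6 house controls, although 109.7 and 109.2 CPM came close (log2 fold change 0.12, SE 0.04, edgeR adjusted p = 0.422). Cox5a had 95.7, 101 and 100.2 CPM in trained KO mice, against 90.3, 90.5 and 93.4 CPM in KO house controls. In WT mice it had 95.8, 99.6 and 98 CPM after training, against 95.3, 90.6 and 94.5 CPM in house controls. Again the 6 and 6 libraries did not overlap, although 95.7 and 95.3 CPM came close (log2 fold change 0.09, SE 0.04, edgeR adjusted p = 0.436). The 2 are 2.44% of members, against 0.198% of all genes separated in this direction and 0.486% in either. Neither passed under DESeq2, at adjusted p = 0.202 and 0.197, where 0.442% of all genes were called. Within the first animal series the log2 fold changes of Ndufa10 and Cox5a were 0.15 and 0.10, and within the second 0.08 and 0.08. Cell type markers also stood apart by training: the 8 pan-neuronal markers summed to 6817 to 8081 CPM in trained mice, against 5112 to 6969 CPM in house controls, and the 8 endothelial markers to 170 to 194 CPM in trained mice, against 191 to 283 CPM in house controls, both with some overlap. In KO-labelled mice alone, the 8 astrocyte markers (4790 to 5312 CPM trained, against 5853 to 7001 CPM in house controls) and the 8 microglia markers (335 to 407 CPM trained, against 421 to 539 CPM in house controls) did not overlap, nor did the endothelial markers (179 to 184 CPM trained, against 191 to 209.9 CPM in house controls). Their part in the training differences was not tested.

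Within each genotype, trained over house control, the medians had opposite signs. In KO-labelled mice the median was 0.03 with 61 of 82 members above 0, and in WT mice it was -0.03 with 56 below 0. For all genes the medians were -0.003 in KO-labelled mice, with 7669 of 15622 above 0, and -0.01 in WT mice, with 8084 below 0. No member passed in either (0.0% of all genes in both). At an unadjusted p under 0.05 there were 0 members in KO-labelled mice (3.01% of all genes) and 1, Ndufa10, in WT mice (9.82%). DESeq2 called 0 members in both, and 0.0449% of all genes in KO-labelled and 0.121% in WT mice. The authors' deposited tables call 0 of the 83 members with an adjusted p in both, and 0.0716% of all genes in KO-labelled and 0.117% in WT mice. The WT median was 0.01 without WT house control replicate 3. In WT mice, leptomeningeal markers (189 to 1235 CPM trained, against 1301 to 1853 CPM in house controls), pericyte and mural markers (134 to 179.6 CPM, against 205 to 292 CPM) and endothelial markers (170 to 194 CPM, against 223 to 283 CPM) did not overlap between trained mice and house controls, and their part was not tested. Members without overlap numbered 5 of 82 in KO-labelled mice (6.1%, against 7.88% of all genes) and 2 in WT mice (2.44%, against 14.8%). The 2 comparisons share no library. The interaction, the trained genotype difference minus the house control one, had a median of 0.06 with 67 of 82 members above 0. For all genes its median was -0.01, with 7600 of 15622 above 0. No member passed (0.0% of all genes), and 0 of 82 members had an unadjusted p under 0.05, against 1.5% of all genes. DESeq2 called 0 members and 0 of all genes. Sdhd, a membrane anchor of complex II, had the smallest unadjusted p of the members (0.20, SE 0.09, edgeR adjusted p = 1), and Ndufa11 the smallest in complex I (0.24, SE 0.13). Without the 3 house controls high in choroid plexus and thalamus markers, a lone WT house control is left. The interaction was then 0.11 for Sdhd and 0.10 for Ndufa11, and the members' median was -0.03. Only house controls were left out, and trained libraries with up to 7920 CPM of choroid plexus markers were kept.

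Other genes of the pathway, from lists chosen with earlier results of these data known, gave no call in any contrast by edgeR. Over both treatments, KO over WT, the 7 subunits and carriers outside the symbol rule had a median log2 fold change of -0.01. Cycs, cytochrome c, had 39 ± 2.42 CPM in KO-labelled and 42.2 ± 1.63 CPM in WT mice (SD, n = 6 each; edgeR adjusted p = 0.259). The 48 tested assembly factors had a median of -0.02, with 27 below 0. Among them 2 were higher and 3 lower at an unadjusted p under 0.05. The 2 higher were Atpaf2, an assembly factor of the F1 part of ATP synthase, and Ttc19, linked to complex III. Atpaf2 had 17.6 ± 1.35 CPM in KO-labelled and 15.8 ± 0.539 CPM in WT mice (SD, n = 6 each; log2 fold change 0.15, edgeR adjusted p = 0.227). Ttc19 had 120 ± 8.91 CPM in KO-labelled and 108 ± 11.9 CPM in WT mice (SD, n = 6 each; log2 fold change 0.16, edgeR adjusted p = 0.282). Of the lower ones, Coa5, linked to complex IV assembly, had 104 ± 6.2 CPM in KO-labelled and 119.6 ± 10.4 CPM in WT mice (SD, n = 6 each; edgeR adjusted p = 0.189). The 22 regulators of nuclear respiratory genes and mitochondrial DNA had a median of -0.06, with 15 below 0. Gabpb2, a partner subunit of GABP, had 30.1 ± 2.32 CPM in KO-labelled and 36.9 ± 3.97 CPM in WT mice (SD, n = 6 each; edgeR adjusted p = 0.104). The 18 pyruvate dehydrogenase and citric acid cycle genes had a median of -0.02, and Suclg1, of succinyl-CoA synthetase, the step before succinate dehydrogenase, had 88.9 ± 4.16 CPM in KO-labelled and 99.1 ± 5.66 CPM in WT mice (SD, n = 6 each; edgeR adjusted p = 0.204). The 77 mitochondrial ribosomal protein genes had a median of -0.02. The 77 tested cytosolic ribosomal protein genes, which are no part of the pathway, had a median of -0.08, with 69 below 0 and none past the threshold. Of the 7 outside the rule 1 was lower at an unadjusted p under 0.05 over both treatments, as were 2 of the regulators and 1 of the citric acid cycle genes, with 0 higher in each list. Of the mitochondrial ribosomal genes 1 was higher and 2 were lower, and of the cytosolic ribosomal genes 0 were higher and 12 lower. Of all genes 14.4% stood under that p, 8.54% higher and 5.89% lower. In house controls the median of the cytosolic ribosomal genes was -0.12, against -0.07 for the oxidative phosphorylation genes.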

How the data were processed

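The authors deposited 1 file of raw counts per library, giving whole reads for each gene symbol, and unassigned reads have no row. Named in the submitters' processing notes are DESeq2 1.18.1, HTSeq 0.9.1, TopHat2 2.1.1, Bowtie2 2.3.4.2, cutadapt 1.18 and the build mm10. The sources used here do not give a strand setting, and reads of overlapping or antisense genes may be merged. In 4 pairwise tables the authors deposited, per the file headers, a mean signal of normalized counts, a log2 fold change with its standard error, a statistic (score), and raw and adjusted p-values. Groups came from the labels, and beyond animal numbers no label says that libraries are separate mice, so p-values measure the spread between these libraries. No pair of libraries within a group was alike within sampling noise (chi-square per degree of freedom at least 14.9). A floor of 3 counts was 0.109 to 0.152 CPM and covers counting error only.

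The edgeR package 4.0.16 (R 4.3.3) fitted 4 group means over 12 libraries, with filterByExpr (10 counts per library, 15 in total), TMM scaling, 8 residual degrees of freedom and robust quasi-likelihood. The 7 contrasts were KO against WT and trained against house control, within each level of the other factor and averaged over it, and their interaction. Adjustment (Benjamini-Hochberg) took in every gene tested, and 0.05 was the threshold. Standard errors were derived from the F statistic. A permutation of 3 against 3 libraries, if done exactly, cannot go below 0.1. "Without overlap" means that all libraries of one group lie above all of the other. Lengths are of the APPRIS principal transcript (the shortest where several tie), and copies were searched with blastn 2.17.0. Tried as alternatives were scaling by median of ratios, DESeq2 1.42.0, all genes unfiltered, genes averaging at least 1 CPM, only the libraries compared, animal series (8 and 4 libraries, inferred from a gap in the titles' animal numbers and recorded by no label) as a term, either series alone, and leaving out libraries singly or by tissue content. Members, gene lists and markers were chosen with earlier results of these data known. Per comparison and complex, up to 4 members with the smallest unadjusted p could be named, and fold changes are given for those under 0.15, with the isoform sets and each complex's highest and lowest level. The sequences are RefSeq's. The values of 1 member are not reported here.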

Additional observations from a re-analysis of the deposited data

How the results depend on the processing

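No paired analysis was possible because the labels give the groups no shared replicate numbers, and the numbers used here follow accession order. Without the 3 house controls high in choroid plexus and thalamus markers, the median member log2 fold change was 0.011 for KO over WT in house controls, 0.057 for trained over house control in WT and -0.030 for the interaction, against -0.07, -0.03 and 0.06 with them. Leaving them out also turned the sign of KO over WT in house controls for Sdhc (0.022), Uqcrb (0.0039) and Cox7a1 (0.073), and of trained over house control in WT for Cox7a1 (0.56). None of these passed the threshold with or without them, and the lone WT house control then left is assumed to vary like the other groups. Only house controls were left out there. The remaining WT house control had 113 CPM of choroid plexus markers, against 3324, 54.1 and 7920 CPM in the trained WT libraries. Trained KO replicate 2, with 4777 CPM, was also kept. Tissue content thus still differed between the groups compared. DESeq2 called 1 member in trained mice and 1 over both treatments, Sdha each time. Under edgeR, over all other alternatives and left-out libraries, the adjusted p of Sdha over both treatments was 0.139 to 0.673, and the cause of the difference between the tools was not tested. Leaving out single libraries gave medians of -0.11 to -0.03 in house controls, -0.04 to 0.03 in trained mice and -0.06 to -0.01 over both for KO over WT. Chosen after the data were seen, an additive fit of the second animal series (4 libraries) gave medians of -0.09 for KO over WT and -0.03 for trained over house control, with 0 members called; the within-level contrasts and the interaction have 1 library per group there and no residual degrees of freedom. Of 1113 alternative values, 1102 kept their direction and side of the threshold or moved by less than the spread. That share is no measure of stability, since a change of sign by less than the spread counts as kept. The medians of KO over WT in trained mice, from -0.04 to 0.03 with single libraries left out, all counted so. No member passed the threshold in the main fit, which also makes staying on its side likely. Depth limits the isoforms averaging under 3 CPM.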
